A study of Mus musculus with 12 samples.

Results

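Antibody and plasma cell genes, 10 in all, were followed through bulk RNA-seq of mouse oral tumours, namely the 4 immunoglobulin G heavy chain constant genes Ighg1, Ighg2b, Ighg2c and Ighg3, the heavy chain constant genes Ighm, Igha and Ighd, the kappa light chain constant gene Igkc, and the plasma cell genes Jchain and Mzb1. They were taken by symbol from a table of 55401 genes, and all 10 members were found. They were selected on their FPKM values in these same 12 libraries, in which Ighg3 was already known to separate 1 treatment group. Their levels under BF10 and the comparisons of BF10 with the other groups are therefore given as descriptions without a test. The p-values of members in the other comparisons also come from genes picked on these data and are descriptions. FPKM stands for fragments per kilobase of transcript, scaled to the size of the library, a level that is already divided by gene length, so that different genes can be set side by side.

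By the labels, MTC-Q1, an oral cancer line, was grown as an orthotopic tumour in C57BL/6 mice that were treated once the tumour measured 100 mm3. There were 4 groups with 3 libraries in each. Ctrl-IgG was labelled as a control isotype (IgG1-Fc), and αCSF1R was an antibody against the macrophage growth factor receptor CSF-1R. IL-10-Fc was interleukin-10 joined to an antibody Fc part, and BF10 was a fusion of the anti-CSF-1R antibody with interleukin-10. The labels give 6 doses in the treatment text and 4 in the design text, and they do not say whether the libraries of a group came from separate animals, so that a p-value measures only the spread between these libraries. All 4 agents carry an antibody part as protein, whereas the libraries were made from mRNA.

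An antibody consists of paired heavy and light chains, and each chain joins a variable segment, which binds antigen, to a constant gene, which sets the class. A resting B cell makes IgM and IgD from Ighm and Ighd, the constant genes nearest to the variable segments. After activation a B cell can switch class by deleting the DNA up to a constant gene further along, so that the same variable segment is then joined to an IgG, IgE or IgA constant gene. Plasma cells, the secreting end stage, hold very large amounts of these transcripts together with Jchain, which links IgM and IgA units into polymers, and Mzb1, a chaperone of the endoplasmic reticulum.

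The order of the heavy chain constant genes along the minus strand of chromosome 12 (GRCm38, GENCODE M21) is the order in which switching can reach them. Measured from the start of Ighm (chr12:113418558-113422730), Ighd began after 6.41 kb, Ighg3 after 61.5 kb, Ighg1 after 92.2 kb, Ighg2b after 115 kb, Ighg2c after 134 kb, the IgE gene Ighe after 149 kb and Igha after 162 kb. Igkc lies on chromosome 6 (chr6:70726435-70726966, plus strand) and Jchain on chromosome 5 (chr5:88519809-88527891, minus strand).

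The 4 IgG genes differ most plainly in the hinge, the flexible stretch between the antigen-binding arms and the Fc part. The hinge is encoded by exon 2 of 6 in each gene, and is shown here because the separate levels of the 4 subclasses depend on such differences. Capitals mark the in-frame cysteine codons, which form the bonds between the heavy chains. All lie on the minus strand of chromosome 12 in GRCm38, Ighg3 at chr12:113360529-113360576, Ighg1 at chr12:113329844-113329882, Ighg2b at chr12:113307261-113307326 and Ighg2c at chr12:113288263-113288325.
Ighg3: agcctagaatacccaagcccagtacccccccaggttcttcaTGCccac
Ighg1: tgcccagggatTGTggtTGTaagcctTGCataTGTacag
Ighg2b: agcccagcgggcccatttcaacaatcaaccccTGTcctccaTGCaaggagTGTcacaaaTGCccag
Ighg2c: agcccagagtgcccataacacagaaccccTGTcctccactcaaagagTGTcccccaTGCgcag
The Ighg3 hinge holds 1 such codon in 48 bases, Ighg1 holds 4 in 39, Ighg2b holds 4 in 66 and Ighg2c holds 3 in 63. Over the coding sequence, Ighg2b and Ighg2c were identical at 87.8% of bases and Ighg3 and Ighg2b at 78.3%, against 52.0% for Ighm and Ighg3. Few stretches could not be told apart. Of all windows of 75 bases, 0.768% of those in Ighg2b, 0.574% of those in Ighg3 and 0.480% of those in Ighg2c also occurred in another of these genes, and none of those in Ighg1, Ighm, Igha, Ighd, Igkc or Jchain occurred in any other gene. Mzb1 overlaps the transcripts of a neighbouring gene, and 51.4% of its windows were shared with that gene. The reference carries Ighg2c, the form of C57BL/6 mice, whereas other strains carry Ighg2a in its place, and reads of Ighg2a were not analysed here.

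Some libraries stood apart before any member was considered. H2-Ea, an MHC class II gene that C57BL/6 mice do not transcribe and that strains such as BALB/c do, was at or below 0.27 FPKM in the 6 Ctrl-IgG and αCSF1R libraries and at or above 552.78 FPKM in the 6 libraries of IL-10-Fc and of BF10. On this point these 6 went against the labelled strain. Xist and the simple epithelial keratins Krt8 and Krt18 were split in the same way. Breast tumours of the line 4T1 in BALB/c mice are another model of the same work, and whether the IL-10-Fc and BF10 libraries came from the labelled tumour line and host was not tested. The Y-linked gene Eif2s3y was 4.23 to 11.3 FPKM in the Ctrl-IgG and αCSF1R libraries and at most 0.05 FPKM in IL-10-Fc, BF10 1 and BF10 2, while BF10 3 held 3.29 FPKM of it beside 23.65 FPKM of Xist and 30.5 FPKM of the muscle gene Acta1, which was at most 0.11 FPKM in BF10 1 and BF10 2. A difference between IL-10-Fc or BF10 on one side and Ctrl-IgG or αCSF1R on the other cannot be told apart from this split, while αCSF1R against Ctrl-IgG and BF10 against IL-10-Fc lie within a side. The squamous keratin Krt5 was at 56.4 to 138 FPKM in Ctrl-IgG 3, αCSF1R 1 and αCSF1R 2 and at or below 2.38 in the other 9 libraries, although all 12 are labelled as oral tumour. BF10 2 and BF10 3 also stood apart from BF10 1 in B cell and lymph node genes, as given further on. BF10 1 in turn had a mitochondrial share of 6.57% of the summed FPKM, against 2.99% and 3.12% in BF10 2 and BF10 3, and IL-10-Fc 1, IL-10-Fc 2 and Ctrl-IgG 2 had 9.04%, 7.69% and 7.19%. Its part in the lower member levels of BF10 1 was not tested. In bulk tissue, fewer cells of a type and less RNA per cell cannot be told apart.

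The kappa constant gene Igkc, the constant part of every kappa light chain, reached the highest level of the members. Its level was 0.81, 3.98 and 11.9 FPKM in Ctrl-IgG 1, 2 and 3, and 17.4, 14.2 and 34.6 FPKM in the αCSF1R libraries. Under IL-10-Fc it was 129, 5.67 and 82.1 FPKM, and under BF10 it was 96.6, 919.55 and 2433 FPKM. All 3 αCSF1R libraries lay above all 3 Ctrl-IgG libraries, and all 3 BF10 libraries lay above both of these groups. BF10 1 fell inside the range of IL-10-Fc, since IL-10-Fc 1 was higher, and IL-10-Fc 2 fell inside the range of Ctrl-IgG. Within BF10 the highest library exceeded the lowest by 25.2-fold.

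**Figure D1:**
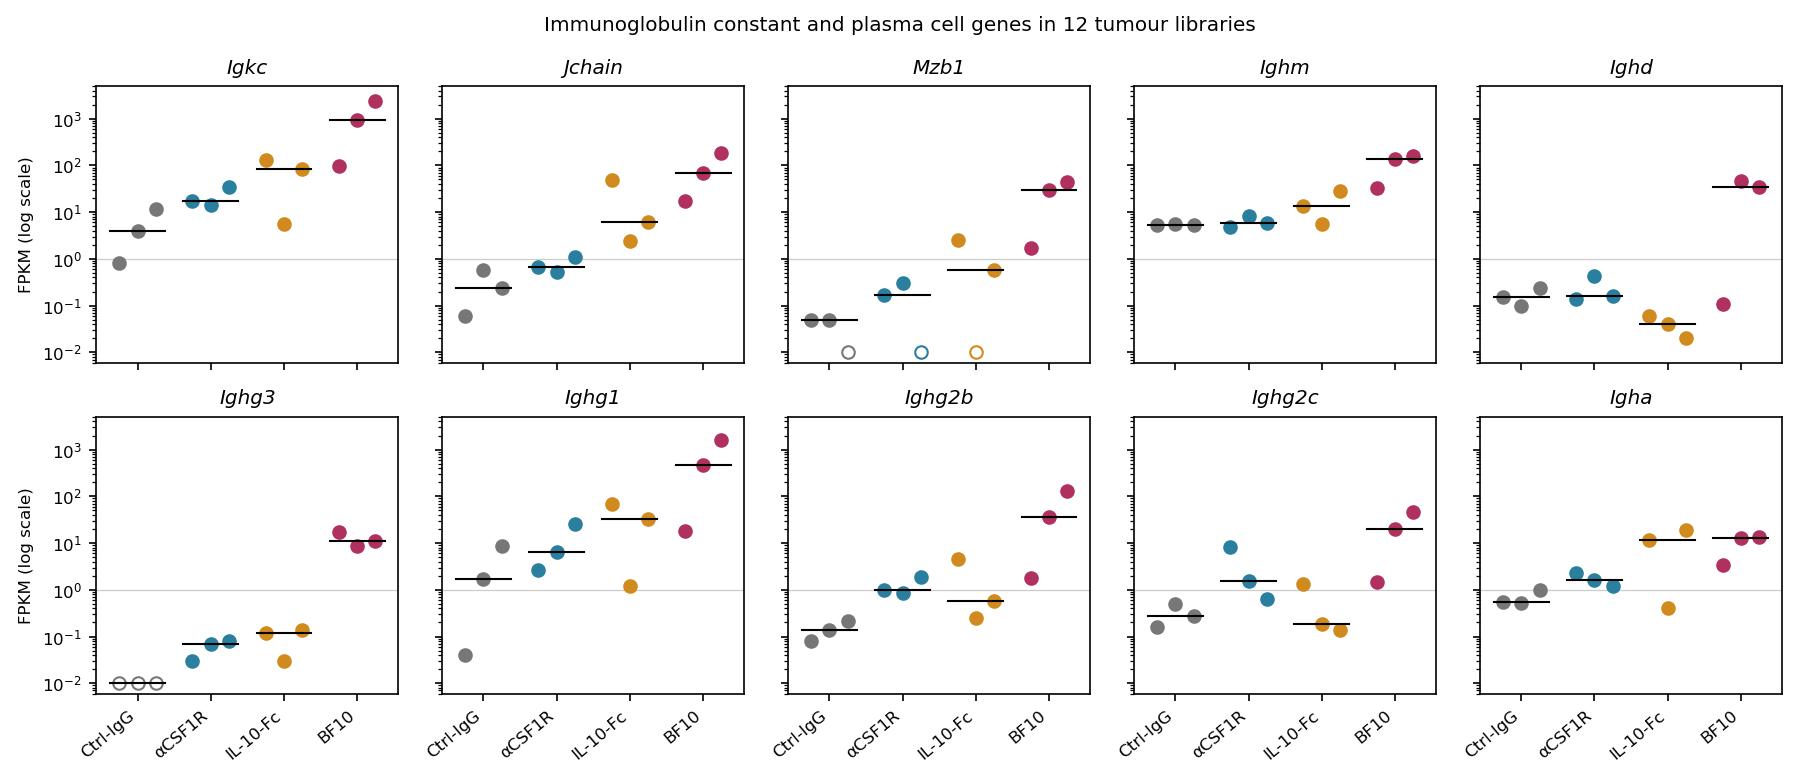
Level of each of the 10 members in each of the 12 libraries, by treatment group, in FPKM on a log scale; each point is 1 library, black bars are medians, the grey line is at 1 FPKM, and open points at the bottom stand for libraries listed at 0. Ighg3 is at 8.51 to 16.98 FPKM in the 3 BF10 libraries and at or below 0.14 in the other 9, and Igkc spans 0.81 to 2433 FPKM.

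The lambda light chains, the alternative to kappa, had lower levels. Iglc1 was at or below 0.37 FPKM in the 6 Ctrl-IgG and αCSF1R libraries, at 15.4, 2.82 and 2.61 FPKM in IL-10-Fc 1 to 3 and at 2.84, 26.6 and 29.4 FPKM in BF10 1 to 3. Summed, Iglc1, Iglc2, Iglc3 and Iglc4 made up 4.18% to 16.4% of the light chain constant FPKM in 11 libraries and 40.7% in IL-10-Fc 2, where Igkc was only 5.67 FPKM. The surrogate light chain gene Igll1, a marker of B cell precursors, was at or below 0.10 FPKM in all 12 libraries.

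Ighm, the constant gene of IgM, was present in all 12 libraries. It was 5.43, 5.49 and 5.31 FPKM in the Ctrl-IgG libraries and 4.83, 8.23 and 5.93 FPKM in the αCSF1R libraries. The Ctrl-IgG libraries thus had nearly the same Ighm level while their Igkc lay between 0.81 and 11.9 FPKM. Under IL-10-Fc it was 13.7, 5.47 and 28.4 FPKM and under BF10 32.7, 136 and 155 FPKM, so that every BF10 library lay above the other 9.

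Ighd, the constant gene of IgD and a mark of B cells that have not switched, was close to 0 in all but 2 libraries. It was 0.11, 46.0 and 34.8 FPKM in BF10 1, 2 and 3, and at most 0.44 FPKM elsewhere. In the IL-10-Fc libraries it was 0.06, 0.04 and 0.02 FPKM, below each of the Ctrl-IgG libraries (0.10 to 0.24 FPKM). Relative to Ighm, the level of Ighd was 33.9% and 22.4% in BF10 2 and BF10 3 and at most 5.35% in the other 10 libraries. With 2 libraries at 1 FPKM or more, Ighd did not pass the filter on low values and entered no fit.

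Ighg1, the constant gene of IgG1, spanned the widest range among the IgG genes. Its level was 0.04, 1.67 and 8.85 FPKM in the Ctrl-IgG libraries, 2.61, 6.45 and 25.1 FPKM in the αCSF1R libraries, 67.8, 1.22 and 33.1 FPKM under IL-10-Fc and 18.0, 463 and 1579 FPKM under BF10. BF10 lay above Ctrl-IgG without overlap, but BF10 1 lay below αCSF1R 3 and below 2 of the 3 IL-10-Fc libraries. Within BF10 the range was 87.9-fold.

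Ighg2b, the constant gene of IgG2b, was 0.08, 0.14 and 0.21 FPKM in Ctrl-IgG and 1.01, 0.86 and 1.92 FPKM under αCSF1R. Under IL-10-Fc it was 4.56, 0.25 and 0.59 FPKM, and under BF10 1.78, 35.8 and 127 FPKM. The Ctrl-IgG libraries were the lowest 3 of the 12, and BF10 1 again lay inside the range of αCSF1R and of IL-10-Fc.

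Ighg2c, the constant gene of IgG2c, was 0.16, 0.50 and 0.27 FPKM in Ctrl-IgG, 8.24, 1.56 and 0.65 FPKM in αCSF1R, 1.34, 0.19 and 0.14 FPKM under IL-10-Fc and 1.47, 20.0 and 45.7 FPKM under BF10. The high value of αCSF1R 1 was the highest outside BF10, and BF10 1 lay below both it and αCSF1R 2. Because strains other than C57BL/6 carry Ighg2a, and the H2-Ea values of the IL-10-Fc and BF10 libraries go against that strain, their Ighg2c values may not be comparable with those of the other 6 libraries, which was not tested.

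Ighg3, the constant gene of IgG3 and the first IgG gene after Ighd along the locus, followed a different pattern. It was listed at 0 in all 3 Ctrl-IgG libraries, at 0.03, 0.07 and 0.08 FPKM in αCSF1R, at 0.12, 0.03 and 0.14 FPKM under IL-10-Fc and at 16.98, 8.51 and 11.1 FPKM under BF10. It was the only member whose highest value was in BF10 1, the BF10 library with the least Igkc, and its range within BF10 was 2.00-fold against 3.96-fold or more for every other member. In BF10 1 the level of Ighg3 reached 94.5% of that of Ighg1, against 1.84% and 0.704% in BF10 2 and BF10 3 and at most 2.46% in the other 9 libraries.

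Igha, the constant gene of IgA, the antibody class of mucosal surfaces, was 0.54, 0.51 and 0.98 FPKM in Ctrl-IgG and 2.34, 1.61 and 1.21 FPKM in αCSF1R. Under IL-10-Fc it was 11.6, 0.41 and 19.3 FPKM, and under BF10 3.46, 13.01 and 13.7 FPKM. It was the only member whose highest library lay outside BF10, in IL-10-Fc 3. Ighe, the IgE gene, which is not a member, was 6.04 and 11.4 FPKM in BF10 2 and BF10 3 and at most 0.14 FPKM in the remaining 10.

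Jchain was 0.06, 0.57 and 0.24 FPKM in Ctrl-IgG, 0.67, 0.52 and 1.12 FPKM in αCSF1R, 48.3, 2.40 and 6.06 FPKM under IL-10-Fc and 17.1, 67.7 and 181 FPKM under BF10. Each of the 6 libraries of IL-10-Fc and of BF10 lay above all 6 Ctrl-IgG and αCSF1R libraries, IL-10-Fc 2 included, in which the other members were low. As a share of the summed heavy chain constant FPKM, Jchain was 48.6%, 31.5% and 7.42% under IL-10-Fc, 23.0%, 9.31% and 9.14% in BF10 and at most 6.78% in the other 6 libraries.

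Mzb1 was at most 0.05 FPKM in Ctrl-IgG and at most 0.30 FPKM in αCSF1R. Under IL-10-Fc it was 2.48, 0 and 0.58 FPKM, and under BF10 1.74, 29.8 and 44.9 FPKM. BF10 1 fell below IL-10-Fc 1, so that these groups overlapped.

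Of the 10 members, 9 passed the filter of at least 1 FPKM in at least 3 libraries. Ighg3 and Mzb1 passed only through BF10, and 7 would have passed without the BF10 libraries. A gene was called where limma gave a Benjamini-Hochberg adjusted p under 0.05 over 15813 tested genes and the change was at least 1.5-fold on the log2(FPKM + 1) scale, a scale that understates the change of low genes. The BF10 differences of Mzb1, and the medians over members that include it, thus rest in part on this filter and on the 1 added to FPKM. The 5 comparisons share groups, so their values for the same gene are not independent.

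For BF10 against Ctrl-IgG, 9 of the 9 members tested were called higher, where 11.8% of all tested genes were called higher. Every BF10 library lay above every Ctrl-IgG library for 9 of the 10 members, all but Ighd, and for 17.3% of all tested genes. Since this contrast was part of the choice of the members, these counts describe them and are not a test. The log2 differences on the log2(FPKM + 1) scale were 6.95 ± 1.29 (SE, 3 libraries per group) for Igkc, 6.32 ± 1.67 for Ighg1 and 5.58 ± 0.94 for Jchain. They were between 2.55 ± 0.82 for Igha and 4.37 ± 1.09 for Ighg2b among Ighg2b, Mzb1, Ighm, Ighg2c and Igha. No difference is given for Ighg3, which was listed at 0 in the Ctrl-IgG libraries. The median over the other 8 members was 4.15, beside -0.12 over all tested genes. Ighg3 and Mzb1, both called, passed the filter only through BF10. The count fell to 5 without BF10 2. Leaving out both BF10 2 and BF10 3 leaves 1 BF10 library, too few to call from, so that the count depends on those libraries.

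For BF10 against αCSF1R, 6 of the 9 members tested were called higher, beside 11.0% of all tested genes, and the groups did not overlap for 6 of the 10, beside 19.8%. The members not called were Ighg1, Ighg2c and Igha. Again these counts describe the members and are not a test. Ighg3 and Mzb1, both called, passed the filter only through BF10. The log2 differences were 5.12 ± 0.94 (SE, 3 libraries per group) for Jchain, 4.81 ± 1.29 for Igkc, 3.77 ± 0.85 for Mzb1 and 3.64 ± 0.61 for Ighm. They were 1.98 ± 0.93 for Ighg2c and 1.86 ± 0.82 for Igha. The median was 3.70 over 8 members without Ighg3 and -0.21 over all tested genes. Here too the count depends on BF10 2 and BF10 3, since 1 BF10 library is left without them.

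BF10 against IL-10-Fc lies within one side of the H2-Ea split, but this side was itself divided. H2-Ea was 1089 to 1727 FPKM in IL-10-Fc 1, IL-10-Fc 2 and BF10 1. It was 553 to 564 FPKM in IL-10-Fc 3, BF10 2 and BF10 3. H2-Ab1 was 164 to 212 FPKM in the first set and 488 to 501 FPKM in the second. The sets are unevenly spread over the groups, and their part in this comparison was not tested. In BF10 against IL-10-Fc 1 of the 9 members tested was called higher, beside 0.00632% of all tested genes. That member was Ighg3, for which this pattern was known when the members were chosen and which passed the filter only through BF10, so that nothing is read from its call. BF10 lay above IL-10-Fc without overlap for 4 of the 10 members, Ighg3, Ighm, Ighg2c and Ighd, beside 4.67% of all tested genes. Ighd did not pass the filter and is not among the tested genes. It separated at 0.11 against 0.06 FPKM, too near 0 to order, and Ighg2c separated narrowly, at 1.47 against 1.34 FPKM. The log2 differences of Igkc, Ighg1, Ighg2b and Ighg2c were between 3.19 and 3.86 with SEs from 0.93 to 1.67 (3 libraries per group). That of Mzb1 was 3.15 ± 0.85. Mzb1 also passed the filter only through BF10 and was at most 2.48 FPKM in IL-10-Fc, so its size rests in part on the pseudocount. No difference is given for Ighg3, whose IL-10-Fc levels of at most 0.14 FPKM leave its size to the pseudocount. The level of Igha differed little, by 0.45 ± 0.82, with a 95% interval from -1.37 to 2.26. The median was 3.17 over 8 members without Ighg3, beside 0.34 over all tested genes. The count of members called was 0 when these 2 groups were fitted alone and 5 without BF10 1.

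For IL-10-Fc against Ctrl-IgG, Jchain was the 1 member called of 9 tested, with a log2 rise of 3.05 ± 0.94 (SE, 3 libraries per group) and a limma adjusted p of 0.0278. Of all tested genes, 10.1% were called higher. The members were selected on these same libraries, and this comparison crosses the H2-Ea split. Its p-values thus describe the members and are not a test. Igkc differed by 3.09 ± 1.29 with an adjusted p of 0.0870, Igha by 2.10 ± 0.82 with an adjusted p of 0.0707, and Ighm by 1.14 ± 0.61 with an adjusted p of 0.170, none of which passed. The groups did not overlap for 3 members that were higher in IL-10-Fc, Jchain, Ighg2b and Ighg3, beside 12.2% of all tested genes. Ighg3 was at most 0.14 FPKM in these groups, and Ighg2b separated at 0.25 against 0.21 FPKM, levels too near 0 to order. Jchain was no longer called without Ctrl-IgG 1, without Ctrl-IgG 3 or without IL-10-Fc 1, when the count was 0, and 3 members were called without IL-10-Fc 2.

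For αCSF1R against Ctrl-IgG, limma called none of the 9 members tested, and it called 0% of all tested genes. None of the 9 had an unadjusted p under 0.05 either, where 437 of all tested genes did. The differences of the 9 members were all above 0, the largest being 2.14 ± 1.29 (SE, 3 libraries per group) for Igkc, with an adjusted p of 0.959 and a 95% interval from -0.71 to 4.99. αCSF1R lay above Ctrl-IgG without overlap for 5 of the 10 members, Igkc, Ighg2b, Ighg2c, Ighg3 and Igha, beside 8.87% of all tested genes. Of these, Ighg3 was at most 0.08 FPKM in both groups, too near 0 to order. The median was 0.82 over 8 members without Ighg3, beside 0.11 over all tested genes.

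**Figure D2:**
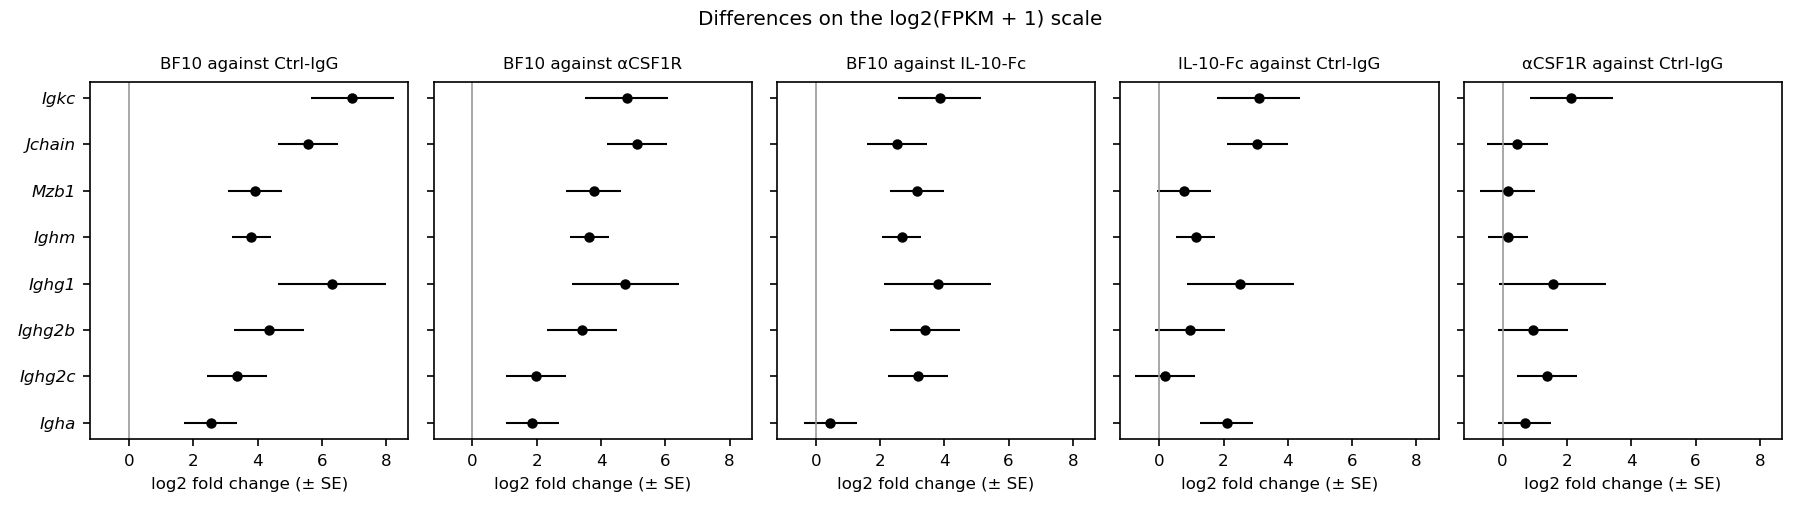
Difference of 8 members in 5 comparisons on the log2(FPKM + 1) scale; points are limma estimates from 3 libraries per group and bars are ± 1 SE. Ighg3, listed at 0 in Ctrl-IgG, and Ighd, which did not pass the filter, are not drawn. Mzb1 is drawn although it passed the filter only through BF10. Igkc lies at 6.95 against Ctrl-IgG in BF10 and at 2.14 in αCSF1R.

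The titles carry a first number from 1 to 7 whose meaning the labels do not give. It was 1 to 4 in Ctrl-IgG 1 and 2, αCSF1R 1 and 2, IL-10-Fc 1 and 2 and BF10 1, and 5 to 7 in the other 5 libraries. Among the libraries with the lower numbers, Igkc was 96.6 FPKM in the BF10 library, 0.81 and 3.98 in Ctrl-IgG, 14.2 and 17.4 in αCSF1R and 5.67 and 129 in IL-10-Fc. Among those with the higher numbers it was 919.55 and 2433 FPKM in BF10, 11.9 in Ctrl-IgG, 34.6 in αCSF1R and 82.1 in IL-10-Fc. Ighg3 was highest in BF10 in both sets. This had to follow, since Ighg3 was already known to separate BF10 when the members were chosen, so nothing is read from it. BF10 has 1 library in the lower set and 2 in the higher, and those 2 are also the libraries with B cell and lymph node genes, so that these cannot be told apart.

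The balance between antibody classes was taken as the share of each gene in the summed FPKM of the 8 heavy chain constant genes, Ighe included. This sum was 6.40, 8.41 and 15.9 FPKM in Ctrl-IgG, 19.2, 19.2 and 35.1 FPKM in αCSF1R, 99.3, 7.61 and 81.7 FPKM under IL-10-Fc and 74.5, 728 and 1978 FPKM under BF10. The 4 IgG genes together made up 4.38%, 27.5% and 58.8% in Ctrl-IgG, 61.9%, 46.5% and 79.1% in αCSF1R, 74.3%, 22.2% and 41.6% under IL-10-Fc and 51.3%, 72.4% and 89.1% under BF10. The mean share was 30.2% ± 27.3 (SD, n = 3) in Ctrl-IgG, 62.5% ± 16.3 in αCSF1R, 46.0% ± 26.3 under IL-10-Fc and 70.9% ± 19.0 under BF10. The 4 groups overlapped, and the SD within a group was 16.3 to 27.3, beside group means from 30.2% to 70.9%.

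Ighm led the balance in Ctrl-IgG 1 (84.8%), IL-10-Fc 2 (71.9%), Ctrl-IgG 2 (65.3%), BF10 1 (43.8%) and αCSF1R 2 (42.8%). Ighg1 led in 6 libraries, from 40.5% in IL-10-Fc 3 to 79.8% in BF10 3, and Ighg2c led in αCSF1R 1 with 42.9%. Within IgG, Ighg1 was the leading gene in 10 of the 12 libraries, all but Ctrl-IgG 1 and αCSF1R 1. Igha held its largest share, 23.6%, in IL-10-Fc 3. Ighg3 held 22.8% in BF10 1, 1.17% in BF10 2 and 0.562% in BF10 3, and at most 0.394% in the other 9 libraries. The balance of BF10 1, with Ighm, Ighg1 and Ighg3 at 43.8%, 24.1% and 22.8%, thus differed from that of the other 2 BF10 libraries.

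**Figure D3:**
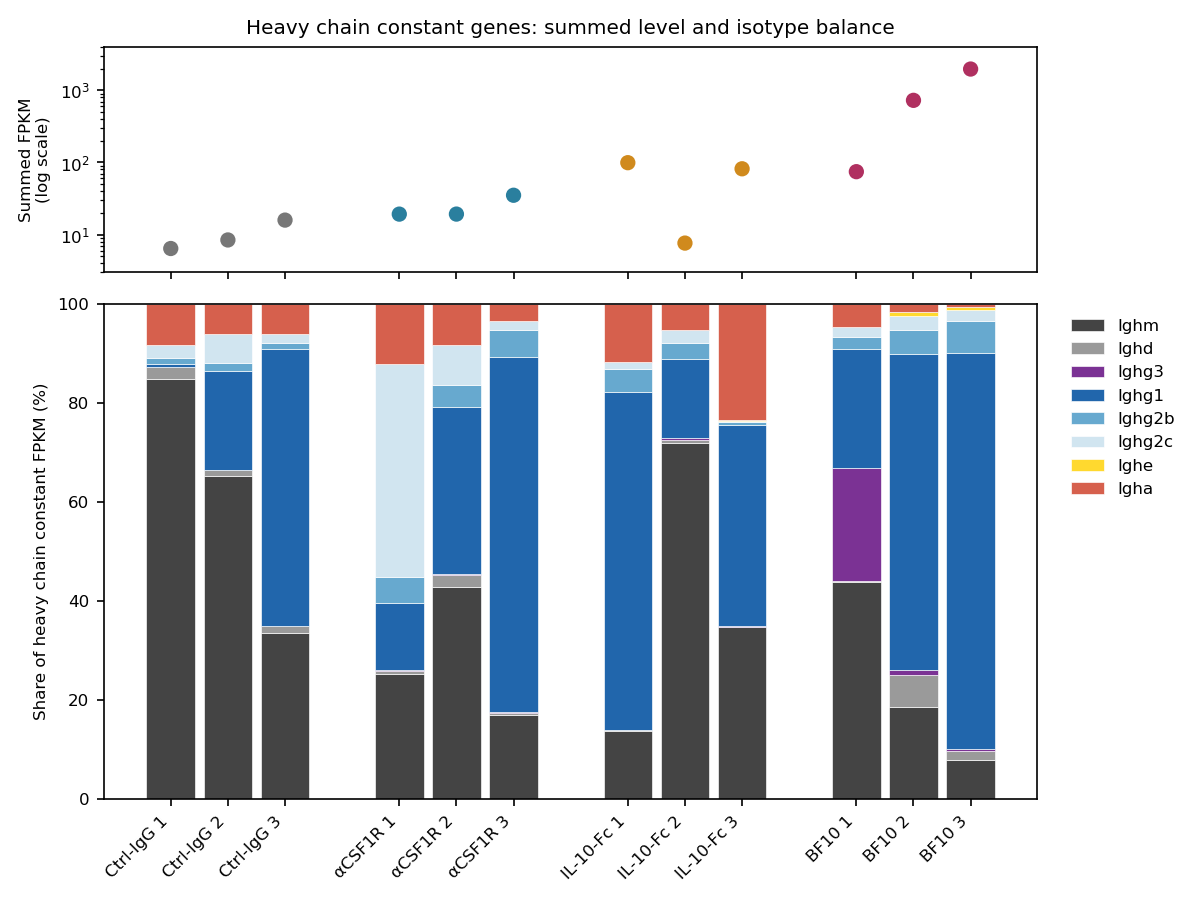
Top, summed FPKM of the 8 heavy chain constant genes in each of the 12 libraries on a log scale; bottom, the share of each gene in that sum in percent. The sum runs from 6.40 FPKM in Ctrl-IgG 1 to 1978 FPKM in BF10 3, and Ighg3 takes a visible share, 22.8%, in BF10 1.

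The ratio of heavy to light chain constant FPKM was between 0.644 and 1.90 in 11 libraries and 6.96 in Ctrl-IgG 1, where the light chains summed to 0.92 FPKM and Ighm to 5.43 FPKM. It was 0.721, 0.711 and 0.779 in BF10. Ctrl-IgG 1, the library with the least Igkc, was thus the 1 library in which the heavy chain level was far above the light chain level.

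The variable segments describe the mix of antibodies behind these constant genes, since each B cell clone uses 1 heavy and, as a rule, 1 light chain segment. Of 185 heavy chain segments, 0, 1 and 2 were above 0.5 FPKM in Ctrl-IgG, 5, 4 and 7 in αCSF1R, 38, 9 and 36 under IL-10-Fc and 25, 96 and 110 under BF10. The summed heavy chain segment level was 0.69 to 10.95 FPKM in Ctrl-IgG and 68.2, 581 and 1666 FPKM in BF10. More segments pass a fixed level when the sum is higher, so that the counts of segments follow the sums in part.

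A single heavy chain segment led in several libraries with low sums. Ighv1-18 held 44.1% in Ctrl-IgG 3, together with the kappa segment Igkv17-127 at 53.3%. Ighv9-3 held 39.3% in αCSF1R 1, beside Igkv3-7 at 45.9%. Ighv1-74 held 48.2% in αCSF1R 3, beside Igkv1-117 at 54.6%. These 3 libraries thus each had a leading heavy and a leading kappa segment, and the pairs differed. In αCSF1R 1, the library with the high Ighg2c share, the level of Ighv9-3 was 4.82 FPKM and that of Ighg2c was 8.24 FPKM.

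The leading segments of Ctrl-IgG 3 and αCSF1R 3 are shown because they belong to the same family and were still kept apart, with Ighv1-18 at 4.83 FPKM in Ctrl-IgG 3 and 0 in αCSF1R 3, and Ighv1-74 at 0 in Ctrl-IgG 3 and 13.3 FPKM in αCSF1R 3. Ighv1-18 (chr12:114682632-114683065) and Ighv1-74 (chr12:115802648-115803080) lie on the minus strand of GRCm38. The lines give bases 13 to 72 of each transcript, and capitals mark the 17 bases in which they differ.
Ighv1-18: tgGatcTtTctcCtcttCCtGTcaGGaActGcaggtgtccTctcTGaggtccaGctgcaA
Ighv1-74: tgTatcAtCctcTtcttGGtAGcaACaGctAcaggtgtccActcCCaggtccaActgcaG
Over the 351 bases of the transcripts they differed at 59 bases and were identical at 83.2%.

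In BF10 the leading segments held smaller shares where the sums were high. Ighv1-2 held 25.0% and Igkv6-23 held 35.9% in BF10 1, Ighv6-6 held 10.2% and Igkv3-1 held 7.05% in BF10 2, and Ighv1-15 held 13.1% and Igkv6-32 held 20.6% in BF10 3. The 3 libraries therefore shared no leading heavy or kappa segment. In IL-10-Fc the leading heavy segments were Ighv1-15 at 15.7%, Ighv15-1 at 32.2% and Ighv5-17 at 6.89%. Igkv4-59 led the kappa segments of IL-10-Fc 1 at 29.0% and of IL-10-Fc 3 at 20.3%.

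Ighv1-2 and Ighv15-1 are annotated as pseudogenes in the C57BL/6 reference. Ighv15-1 and Ighv14-1 were listed at 0 in all 6 Ctrl-IgG and αCSF1R libraries and lay above 0.5 FPKM in each library of IL-10-Fc and of BF10, IL-10-Fc 2 included, where Ighv15-1 was 8.66 FPKM. In all, 13 segments were at 0 in the first 6 libraries and above 0 in the other 6. The first 6 also had the lower sums, and reads from segments of another strain can be assigned to the nearest segment of the reference, so that single segment names are uncertain on the IL-10-Fc and BF10 side. The part of either in this pattern was not tested.

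**Figure D4:**
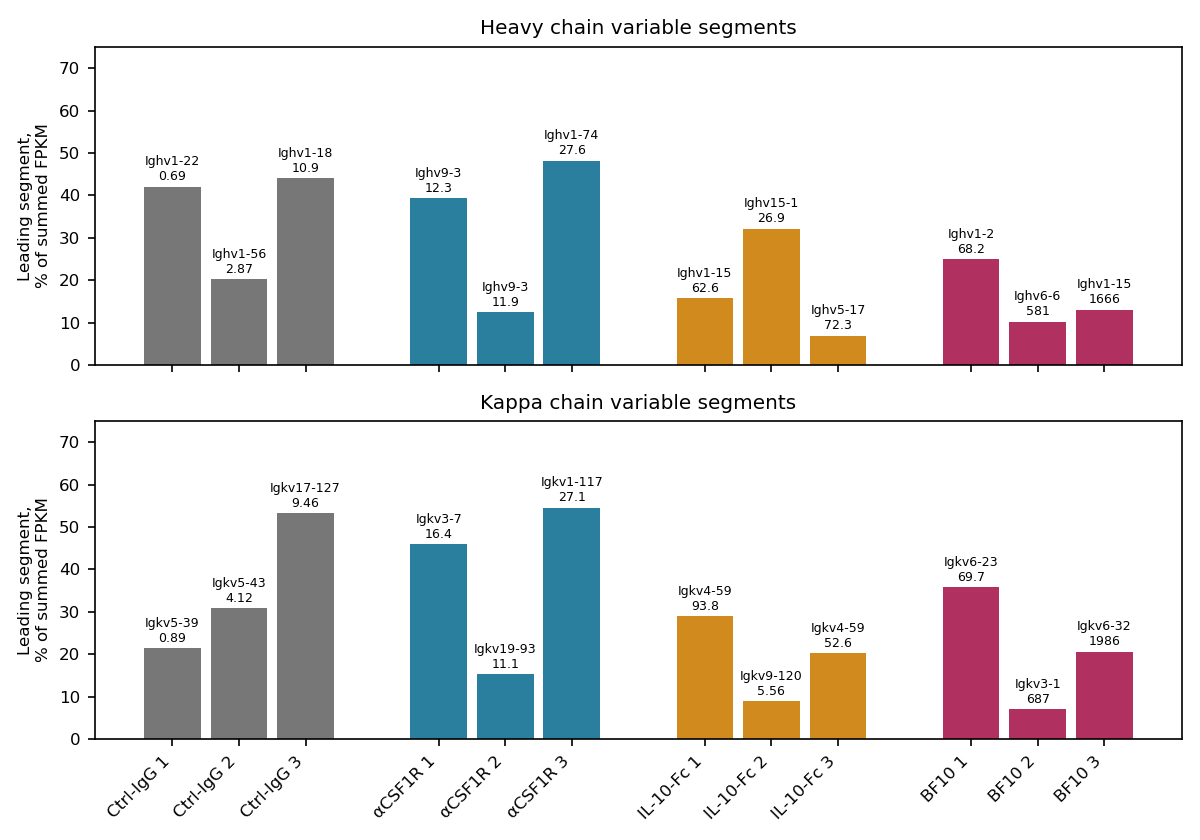
Share of the most abundant variable segment in the summed FPKM of all heavy chain (top) and kappa chain (bottom) variable segments, in percent, for each of the 12 libraries; the name of that segment and the summed FPKM stand above each bar. The shares reach 48.2% and 54.6% in αCSF1R 3 and are 10.2% and 7.05% in BF10 2.

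Further genes of plasma cells were listed, 21 in all. Of these, 15 passed the filter, and in BF10 against Ctrl-IgG 2 were called higher and 1 lower, beside 11.8% and 13.2% of all tested genes. Those higher were Sdc1, the surface proteoglycan CD138, with a log2 difference of 1.33 ± 0.40 (SE, 3 libraries per group, limma adjusted p = 0.0314), and Tnfrsf13b, the receptor TACI, with 1.46 ± 0.30 (adjusted p = 0.00459). The receptor gene Slamf7 was lower by -2.09 ± 0.42 (adjusted p = 0.00446). The median of the 15 was 0.11, beside -0.12 over all tested genes. Sdc1 is also made by epithelial cells, and its level was 21.2 FPKM or more in every library, those with almost no Igkc included.

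The defining markers of plasma cells gave mixed levels. Prdm1, the regulator of plasma cell fate, was 0.57 to 1.79 FPKM in Ctrl-IgG and 1.65, 4.28 and 3.62 FPKM in BF10. In IL-10-Fc it was 1.41, 1.39 and 5.55 FPKM. Xbp1, which drives the secretory machinery, was 60.6 to 86.5 FPKM in Ctrl-IgG and 67.9 to 90.6 FPKM in BF10. Tnfrsf17, the plasma cell survival receptor BCMA, was at most 0.33 FPKM in BF10 and at most 0.10 FPKM in IL-10-Fc. Both groups lay below all 3 Ctrl-IgG libraries (0.43 to 1.36 FPKM). Derl3, a gene of endoplasmic reticulum quality control, was 0.38, 4.06 and 7.44 FPKM in BF10 and at most 0.79 FPKM elsewhere. Pou2af1, a coactivator of immunoglobulin genes, was 0.26, 39.3 and 20.1 FPKM in BF10 1, 2 and 3 and at most 0.75 FPKM elsewhere. Irf4, a regulator of plasma cell fate, was 0.17, 1.90 and 2.72 FPKM in BF10 and at most 0.26 FPKM elsewhere, and Eaf2 was 0.95, 5.95 and 7.34 FPKM against at most 1.86 FPKM. Cd38, a surface enzyme, was 2.74, 14.8 and 13.3 FPKM in BF10 and at most 6.94 FPKM elsewhere. Derl3, Pou2af1, Irf4, Eaf2 and Cd38 were thus high in BF10 2 and BF10 3 and not in BF10 1. Tnfrsf17 was low in all 3, as it was in IL-10-Fc.

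In IL-10-Fc against Ctrl-IgG, 1 plasma cell gene of 15 was called higher and 5 lower, beside 10.1% and 23.6% of all tested genes. Sec11c, of the signal peptidase, was higher by 1.00 ± 0.29 (adjusted p = 0.0227). Slamf7 was lower, by -2.81 ± 0.42 (adjusted p = 0.000636), as were the chaperone and quality control genes Creld2, Edem1, Pdia4 and Fkbp11, by between -1.70 and -0.66. In BF10 against αCSF1R 2 of the 15 were called higher, Tnfrsf13b and Sec11c, and 1 lower, Slamf7, beside 11.0% and 14.0% of all tested genes. None was called in αCSF1R against Ctrl-IgG or in BF10 against IL-10-Fc by limma, with 0 and 5 of the 15 at an unadjusted p under 0.05. Among all 15813 tested genes, 437 and 828 were at that level.

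B cell genes separated the BF10 libraries. Ms4a1, which encodes CD20, was 0.19, 22.6 and 9.57 FPKM in BF10 1, 2 and 3, and at most 0.41 FPKM in the libraries outside BF10. In the same order Cr2, a complement receptor of mature and follicular B cells, was 0.06, 13.7 and 5.92 FPKM, and Fcer2a, which encodes CD23, was 0, 16.8 and 8.88 FPKM. In BF10 1, therefore, Igkc, Ighm and Ighg3 were high with Ms4a1, Cr2 and Fcer2a at or below 0.19 FPKM. Of 18 B cell genes listed, 18 were at 1 FPKM or more in the highest BF10 library and 4 in the lowest, against 5 to 8 in Ctrl-IgG, and their summed level was 22.8 to 351 FPKM in BF10 and 32.5 to 160 FPKM in Ctrl-IgG. The Ctrl-IgG sum included 91.5 FPKM of Ly6d in Ctrl-IgG 3, a gene that was also 47.4 and 68.7 FPKM in αCSF1R 1 and 2, the other libraries with Krt5.

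Of the 18, 10 passed the filter. In BF10 against Ctrl-IgG 1 was called higher, Btla, an inhibitory receptor of lymphocytes, beside 11.8% of all tested genes. Its log2 difference was 2.21 ± 0.61 (SE, 3 libraries per group, limma adjusted p = 0.0220). Against αCSF1R Btla was again the 1 called higher in BF10, beside 11.0% of all tested genes. In IL-10-Fc against Ctrl-IgG 2 of the 10 were called lower, beside 23.6% of all tested genes. They were the B lineage regulators Pax5 and Ebf1, by -2.17 ± 0.54 (limma adjusted p = 0.0106) and -1.34 ± 0.32 (adjusted p = 0.00886). Pax5 was 2.59 to 4.49 FPKM in the 6 Ctrl-IgG and αCSF1R libraries, in which Ms4a1 was at most 0.05 FPKM, and at most 0.09 FPKM in IL-10-Fc and BF10 1. For BF10 against IL-10-Fc none was called by limma, with 8 of the 10 at an unadjusted p under 0.05, beside 828 of all 15813 tested genes. For αCSF1R against Ctrl-IgG none was called, with 0 at that level, beside 437 of all tested genes.

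Genes of lymph node stroma were high in the same 2 BF10 libraries as the B cell genes. Glycam1, a ligand made by the vessels through which lymphocytes enter lymph nodes, was 0.73, 95.4 and 49.6 FPKM in BF10 1, 2 and 3, and at most 4.83 FPKM elsewhere. Ccl21a, the chemokine that draws lymphocytes into lymph nodes, was 0.59, 107 and 101 FPKM in BF10 and 0.16 to 25.5 FPKM elsewhere. The summed level of the 7 stroma genes in the table was 6.86 to 241 FPKM in BF10, 3.54 to 14.8 in Ctrl-IgG, 12.8 to 22.8 in αCSF1R and 10.1 to 39.7 in IL-10-Fc. Their part in the member levels of BF10 2 and BF10 3 was not tested. In BF10 1, where Glycam1 was 0.73 FPKM and Ccl21a was 0.59 FPKM, Igkc was 96.6, Ighm 32.7 and Ighg3 16.98 FPKM.

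**Figure D5:**
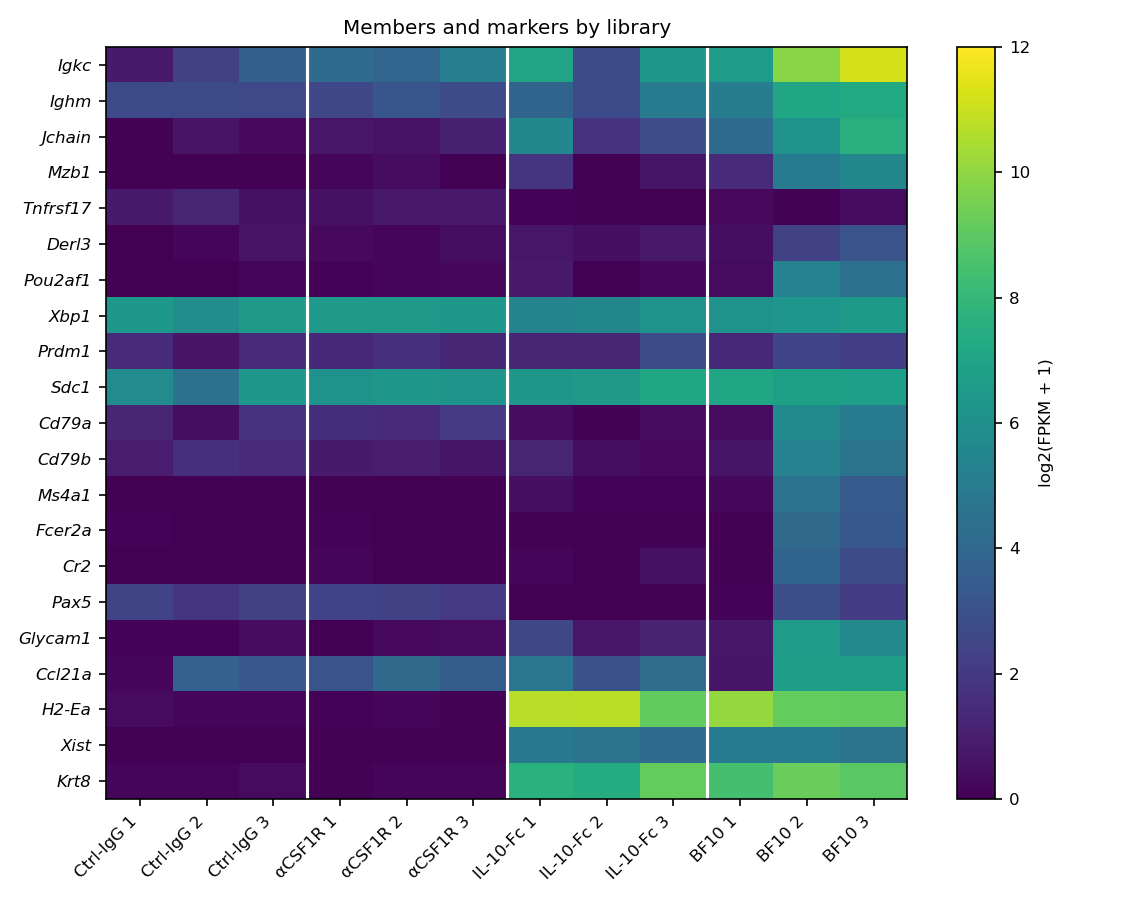
Levels of members and of marker genes of plasma cells, B cells and lymph node stroma, with H2-Ea, Xist and Krt8, in the 12 libraries, as log2(FPKM + 1) in colour. Ms4a1, Cr2, Fcer2a and Glycam1 are bright in BF10 2 and BF10 3 and dark in BF10 1, and H2-Ea divides the 6 IL-10-Fc and BF10 libraries from the other 6.

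Genes of class switching and of the germinal centre, where B cells switch and mutate their antibody genes, gave few calls. Rgs13 and Gcsam, expressed in germinal centre B cells, were 2.71 and 3.20 FPKM in BF10 2 and at most 0.18 and 0.69 FPKM in the 9 libraries outside BF10. Of 10 such genes 5 passed the filter, and the 1 called in any comparison was Fas, a death receptor. It was higher in IL-10-Fc than in Ctrl-IgG by 1.35 ± 0.42 (SE, 3 libraries per group, limma adjusted p = 0.0297). In that comparison 10.1% of all tested genes were called higher. In the other 4 comparisons limma called none, and 0 had an unadjusted p under 0.05.

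The list of cytokines and chemokines that direct switching or the survival and homing of antibody-making cells held 9 tested genes. Of these 9, 2 were called in BF10 against Ctrl-IgG, both higher, beside 11.8% of all tested genes called higher. Cxcl13, which attracts B cells to follicles, was 64.4, 40.1 and 27.8 FPKM in BF10, 0.08, 0.61 and 7.32 FPKM in Ctrl-IgG, 0.54 to 3.60 FPKM in αCSF1R and 2.74 to 17.9 FPKM in IL-10-Fc, and the BF10 libraries lay above the other 9. Its log2 difference was 4.13 ± 0.79 (SE, 3 libraries per group, limma adjusted p = 0.00335) against Ctrl-IgG and 3.93 ± 0.79 (adjusted p = 0.0043) against αCSF1R, and 2.43 ± 0.79 (adjusted p = 0.478) against IL-10-Fc. Like Ighg3, it had its highest level in BF10 1. Cxcl12, which retains plasma cells in their niches, was higher in BF10 than in Ctrl-IgG by 2.34 ± 0.61 (adjusted p = 0.0165). Tnfsf13, the survival factor APRIL, was higher in BF10 than in αCSF1R by 0.91 ± 0.30 (adjusted p = 0.0476), and Tgfb1, which directs switching to IgA, was at 21.8 to 59.5 FPKM over all 12 libraries. The T cell cytokines Il4 and Ifng, which direct switching to IgG1 and to IgG2c, were at most 1.73 and 2.57 FPKM in any library.

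Of 12 receptor and transport genes for antibodies, 8 passed the filter. In BF10 against Ctrl-IgG 2 were called higher and 1 lower, beside 11.8% and 13.2% of all tested genes, and in IL-10-Fc against Ctrl-IgG 3 higher and 1 lower, beside 10.1% and 23.6%. Fcgr2b, the inhibitory Fc receptor, was 33.2 to 64.2 FPKM in Ctrl-IgG, 17.5 to 31.9 FPKM in αCSF1R, 116 to 215 FPKM under IL-10-Fc and 119 to 154 FPKM under BF10. It was higher by 1.45 ± 0.33 (SE, 3 libraries per group, limma adjusted p = 0.00775) in BF10 and by 1.74 ± 0.33 (adjusted p = 0.0023) in IL-10-Fc against Ctrl-IgG. Fcgrt, the receptor that recycles IgG, was higher in both as well, by 1.82 ± 0.41 (adjusted p = 0.00809) and 1.85 ± 0.41 (adjusted p = 0.00605), and Trim21, a cytosolic antibody receptor, was lower in both, by -0.66 ± 0.18 (adjusted p = 0.0222) and -0.86 ± 0.18 (adjusted p = 0.00435). Against αCSF1R, a comparison that also crosses the H2-Ea split, 5 of the 8 were called higher in BF10 and 1, Trim21, lower, beside 11.0% and 14.0% of all tested genes. In αCSF1R against Ctrl-IgG and in BF10 against IL-10-Fc limma called none, with 5 and 0 of the 8 at an unadjusted p under 0.05. Among all 15813 tested genes, 437 and 828 were at that level. The median log2 difference of the 8 was -1.01 in αCSF1R against Ctrl-IgG, beside 0.11 over all tested genes. Of the 5 called higher in BF10 against αCSF1R, Fcgr1 and Fcer1g differed from Ctrl-IgG by 0.04 ± 0.41 and -0.19 ± 0.26 in BF10. The other 3, Fcgr3, Fcgr2b and Fcgrt, differed by 1.10 to 1.82. Pigr, which carries polymeric IgA and IgM through epithelium, was at most 0.06 FPKM in all 12 libraries, and Fcmr, the IgM receptor of B cells, was 12.8 and 9.33 FPKM in BF10 2 and BF10 3 and at most 0.45 FPKM elsewhere.

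Over the 12 libraries, the members rose and fell together to different degrees. Pearson's r of log2(FPKM + 1) between pairs of the 9 members that passed the filter ranged from 0.494, for Ighg3 and Igha, to 0.978, for Ighg1 and Igkc, over 36 pairs. The points share libraries and groups, so r is a description. Immunoglobulin genes and predicted genes (symbols of Gm and a number, or ending in Rik) were left out of the search for the most similar genes. Among the other tested genes, the one most like Ighg2b was Mzb1 (r = 0.972), and the one most like Mzb1 was Glycam1 (r = 0.971). The one most like Ighm was the T cell receptor gene Trac (r = 0.972), and the one most like Jchain was Serpina1a (r = 0.963). The genes most like Igkc and Ighg1 were Ltc4s (r = 0.951) and Slc46a3 (r = 0.955), and that most like Ighg3 was Ptger3, a prostaglandin receptor gene, with the lowest such value (r = 0.888).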

How the data were processed

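The authors deposited 1 table of FPKM values per gene for 12 libraries, made from stranded poly(A) RNA sequenced on an Illumina NextSeq. The submitters' processing notes name STAR 2.7.5a, RSEM 1.3.3, DESeq2 1.30.0 and the builds mm10 and GRCm38. Deposited tables of the authors' own comparisons, which hold fold changes and p-values, were not used. FPKM hold no counts, so the depth is unknown, no count model was fitted, and an exact 0 can be a value too low to list. Relative depth, estimated from the value steps of 267 low genes, differed by 1.46-fold between libraries, and FPKM sums ran from 637596 to 976950. No library pair held identical values.

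Genes at 1 FPKM or more in at least 3 libraries (15813) were fitted on log2(FPKM + 1), a pseudocount of 1, with limma 3.58.1 in R 4.3.3 (1 fit of 4 groups, moderated with a trend), with Benjamini-Hochberg adjustment over all of them. The script was tested on simulated data. Groups came from the labelled treatment, and library numbers are accession order. All 10 members were named, then listed genes that were called or that define a cell type, and the 5 genes with the highest r. The members and lists were chosen with earlier results of these data known. Genes were placed and sequences read from GRCm38 with GENCODE M21. Alternatives were another pseudocount (0.1), other filters, size factors, TPM, 2 groups alone, terms for the title number or the FPKM sum, and leaving out libraries.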

Additional observations from a re-analysis of the deposited data

How the results depend on the processing

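No paired analysis was possible because the library numbers are accession order and no label pairs libraries across groups. Leaving out 1 library at a time gave 5 to 9 members called for BF10 against Ctrl-IgG (9 with all libraries), 0 to 3 for IL-10-Fc against Ctrl-IgG (1), 0 to 0 for αCSF1R against Ctrl-IgG (0), 1 to 5 for BF10 against IL-10-Fc (1) and 4 to 8 for BF10 against αCSF1R (6). For the B and plasma cell genes together it gave 2 to 11, 6 to 11, 0 to 0, 0 to 8 and 1 to 9 in the same order (4, 8, 0, 0 and 4 with all libraries). The mean IgG share then ran from 15.9% to 43.1% in Ctrl-IgG, 54.2% to 70.5% in αCSF1R, 31.9% to 57.9% in IL-10-Fc and 61.9% to 80.8% in BF10. Leaving out both BF10 2 and BF10 3, an alternative chosen after seeing the data, leaves 1 BF10 library. No counts are given for it, and the BF10 counts depend on those libraries.

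For the members in IL-10-Fc against Ctrl-IgG, the count was 0 with all genes above 0 FPKM and with the 2 groups alone, 3 with a term for the title number, and 4 with size factors and with a term for the FPKM sum. In BF10 against IL-10-Fc it was 0 with a mean of at least 5 FPKM, a filter that Ighg3 did not pass, and 0 with the 2 groups alone. The B and plasma cell genes called in BF10 against Ctrl-IgG were 8 with size factors and with a term for the title number, 13 with a term for the FPKM sum and 2 with the 2 groups alone. Against αCSF1R they were 2 with a mean of at least 5 FPKM, 8 with the title number and 13 with the FPKM sum, and in IL-10-Fc against Ctrl-IgG 5 with the 2 groups alone. The cause of these changes was not tested beyond the fewer genes or samples that a setting itself leaves.

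Signs changed in 8 cases, none of them a called difference. In αCSF1R against Ctrl-IgG, Ighm was -0.18 and Mzb1 -0.11 with a term for the FPKM sum, and Ighm was -0.012 without αCSF1R 2 and up to 0.32 without αCSF1R 1. Ighg2c in IL-10-Fc against Ctrl-IgG was -0.16 without IL-10-Fc 1 and up to 0.36 without IL-10-Fc 3. Igha in BF10 against IL-10-Fc was -0.50 with a term for the FPKM sum, -0.72 without IL-10-Fc 2, 1.20 without IL-10-Fc 3 and -0.68 without both BF10 2 and BF10 3, and Ighg2c in BF10 against αCSF1R was -0.46 without those 2 libraries. Depth limits the low levels, since FPKM were listed to 2 decimals and values near 0 cannot be ordered.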
